A study of Mus musculus with 4 samples.

Results

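The 38 genes described here make up the synthesis of cholesterol and of fatty acids under the control of the sterol regulatory element-binding proteins (SREBPs). They were given as a list of gene symbols, which was chosen with earlier results of these data known. All 38 were found in the table of 53465 mouse genes, and all 38 passed the filter on low counts, which left 12320 genes for testing. By role, 22 belong to the sterol branch and 16 to the fatty acid branch. The cells were B16-F10, a mouse melanoma line, fluorescently labelled and infused into zebrafish. The 2 groups differed in whether the cells had taken part in extravasation, the passage out of a blood vessel: 2 libraries were labelled as not extravasated, which the design text names as the control, and 2 as extravasated. Per the labels, all 4 libraries came from cells in culture in IMDM with serum, and polyA RNA was sequenced with a stranded kit. The growth text describes recovered extravasated cells for all 4 libraries, and the source name and the field on extravasation define the groups. The labels give no number of fish, no clone and no statement that the libraries of a group were separate cultures, so the p-values below measure only the spread between these libraries, which may be technical. The number in the sample titles is the same within a group and differs between groups, and what it stands for cannot be told apart from extravasation.

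Cells make cholesterol from acetyl-CoA through mevalonate, isoprenoid units, squalene and lanosterol, and make fatty acids from the same precursor through malonyl-CoA. SREBP2 mainly drives the sterol genes and SREBP1 mainly the fatty acid genes: when membrane sterol is low, SCAP escorts the precursor from the endoplasmic reticulum to the Golgi, where proteases release the active factor, and when sterol is high, INSIG proteins hold SCAP back. The active factors bind sterol regulatory elements in promoters, together with NF-Y at CCAAT boxes and Sp1 at GC boxes, and serum lipoproteins in culture medium normally keep the pathway partly repressed.

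Promoters of 5 of the genes are shown as examples of how such motifs lie before a start. They come from both branches, hold no annotated exon in GENCODE M21 and were chosen with their matches known. Other windows, such as that of Elovl6, held none of the motifs. Each is the 250 bases before the transcription start in RefSeq (GRCm38.p6), on the gene's strand, and capitals mark matches to 4 motifs, each searched on both strands. The sterol regulatory element was written TCACNCCAC. The box bound by NF-Y was written CCAAT, so the reverse strand shows its complement. The GC box bound by Sp1 was written GGGCGG, which appears reversed as a run of cytosines around one guanine. The E-box, a palindrome that SREBP1 can also bind, was written CACGTG. Neighbouring matches can share bases.
Hmgcs1, chr13:119690101-119690350, plus strand: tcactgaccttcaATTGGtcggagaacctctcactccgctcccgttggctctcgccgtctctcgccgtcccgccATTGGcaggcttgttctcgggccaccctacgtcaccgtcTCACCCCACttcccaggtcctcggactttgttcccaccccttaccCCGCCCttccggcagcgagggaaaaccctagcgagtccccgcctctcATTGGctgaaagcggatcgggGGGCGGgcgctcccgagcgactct
Mvd, chr8:122443423-122443672, minus strand: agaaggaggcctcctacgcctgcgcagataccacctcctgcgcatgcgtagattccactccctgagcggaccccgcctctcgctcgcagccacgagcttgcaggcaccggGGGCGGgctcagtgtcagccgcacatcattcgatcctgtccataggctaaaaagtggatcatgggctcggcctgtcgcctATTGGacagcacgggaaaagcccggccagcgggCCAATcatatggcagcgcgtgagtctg
Sc5d, chr9:42264301-42264550, minus strand: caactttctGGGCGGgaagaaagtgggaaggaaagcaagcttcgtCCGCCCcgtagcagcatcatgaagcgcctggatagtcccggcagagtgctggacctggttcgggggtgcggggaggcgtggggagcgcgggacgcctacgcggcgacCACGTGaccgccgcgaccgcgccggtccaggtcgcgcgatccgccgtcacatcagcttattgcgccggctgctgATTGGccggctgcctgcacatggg
Fasn, chr11:120824548-120824797, minus strand: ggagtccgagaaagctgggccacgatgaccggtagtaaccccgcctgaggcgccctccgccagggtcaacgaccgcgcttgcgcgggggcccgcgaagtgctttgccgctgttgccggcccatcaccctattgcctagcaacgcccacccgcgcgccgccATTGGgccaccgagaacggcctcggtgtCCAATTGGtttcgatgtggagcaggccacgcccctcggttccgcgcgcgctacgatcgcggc
Elovl1, chr4:118427843-118428092, plus strand: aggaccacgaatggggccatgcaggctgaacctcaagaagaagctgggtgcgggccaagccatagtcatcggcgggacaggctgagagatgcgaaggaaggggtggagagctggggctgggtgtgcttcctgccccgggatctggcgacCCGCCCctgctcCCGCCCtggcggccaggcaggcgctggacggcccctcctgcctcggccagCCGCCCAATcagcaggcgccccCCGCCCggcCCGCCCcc
Of the 38 genes, 31 had a promoter in the RefSeq table. A CCAAT box lay in a promoter of 24 of the 31 (77.4%, against 37.5% of 27025 genes), a GC box in 25 (80.6%, against 35.4%), an E-box in 6 (19.4%, against 6.86%) and the sterol element in 1 (3.23%, against 1.22%). The gene with the sterol element was Hmgcs1, with the match from -137 to -129 relative to the start, between CCAAT boxes at -176 and -45. In the sterol branch 16 of 18 genes had a promoter with a CCAAT box and 17 one with a GC box. In the fatty acid branch 8 of 13 genes had each. A gene with several promoters counts if any of them held the match. A match is a description of the letters, and its absence says only that these letters are not in the window. The 27025 genes are all those with a RefSeq promoter, whether or not they passed the filter on low counts. All 38 genes passed that filter, and promoters of the tested genes alone were not counted.

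Total counts ran from 11705904 to 19674733, and the not extravasated libraries had 11705904 and 16430477. The libraries of a group differed by more than counting noise, with a chi-square of 25.8 per degree of freedom between the not extravasated and 15.3 between the extravasated libraries. All 8 markers of melanocytes and melanoma were present at 1 or more counts after scaling to a common library total (CPM), with summed levels from 23927.6 to 30944.7 CPM. No marker of leukocytes (5 genes), endothelium (4) or adipocytes (3) reached 1 CPM, 1 of 4 epithelial markers did, and the 4 fibroblast markers summed to 8.44 to 11.3 CPM. Ptprc, Cd3e, Cdh5, Kdr, Tek, Epcam, Krt8, Dcn, Adipoq and Fabp4 were at 0 in every library. In bulk libraries, fewer cells of a kind and less RNA per cell cannot be told apart.

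The second of the 2 control libraries carried most of the lipid synthesis genes at a higher level than the other 3 libraries did, and the share of these genes that fell between the groups was near that of all tested genes. Between the groups, 12 of the 38 genes fell (31.6%, where 25.9% of all tested genes fell) and 3 rose (7.89%, where 19.1% of all tested genes rose). Tests are edgeR quasi-likelihood tests of extravasated against not extravasated, with Benjamini-Hochberg adjustment over all tested genes and a threshold of 0.05. The median log2 fold change was -0.38 over the 38 genes and -0.02 over all tested genes. In the sterol branch 6 of 22 genes fell and 1 rose, with a median of -0.47, and in the fatty acid branch 6 of 16 fell and 2 rose, with a median of -0.32. The CPM values of the groups did not overlap for 18 genes with lower extravasated values (39.0% of all tested genes did the same) and for 5 with higher ones (37.3% of all tested genes).

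Within the not extravasated group, the second library exceeded the first for 33 of the 38 genes (86.8%), against 41.2% of all tested genes. The median log2 difference was 0.66 over the 38 genes and -0.07 over all tested genes, and it passed 0.5 for 24 of the 38 (63.2%) but for 6.23% of all tested genes. The second library held the highest level of all 4 libraries for 29 of the 38 genes (76.3%), against 20.9% of all tested genes. The extravasated libraries showed no such split: the second exceeded the first for 19 of the 38, with a median difference of 0.00. The distance between replicates was larger in the not extravasated group for 21 of the 22 sterol genes and 12 of the 16 fatty acid genes, and for 57.1% of all tested genes. An exact binomial 95% interval for the ratio of the 2 not extravasated libraries, which covers counting error only, lay above 1 for 31 of the 38 genes (16.9% of all tested genes) and below 1 for 4: Scap, Idi1, Elovl6 and Acsl4. With 1 library on each side, this difference has no replicate check.

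**Figure D1:**
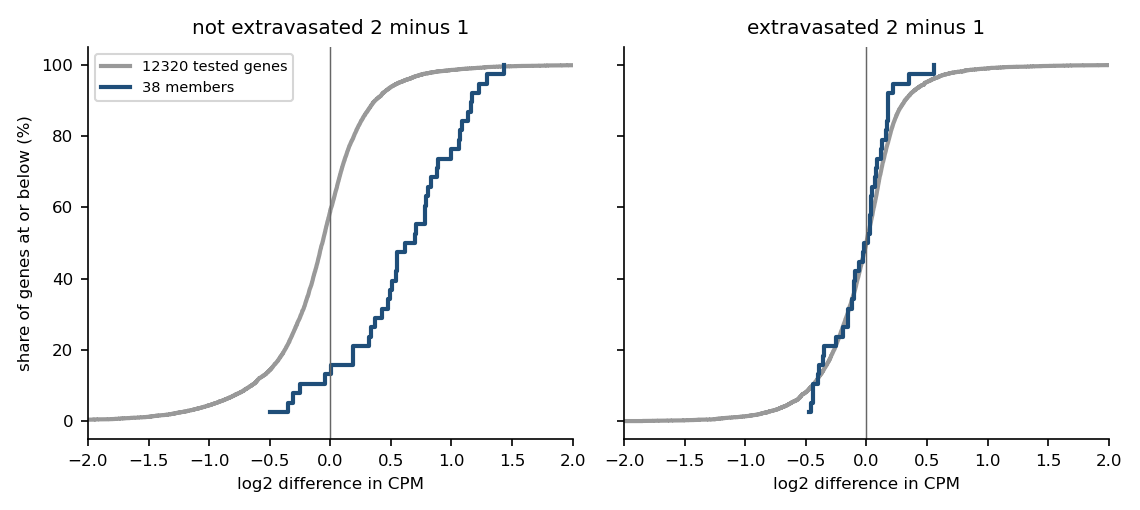
Cumulative share of genes (vertical axis, %) against the log2 difference in CPM between the 2 libraries of a group (horizontal axis), for the 38 synthesis genes (blue) and the 12320 tested genes (grey); the axis leaves out the most extreme tested genes. The blue line lies far to the right of the grey line in the not extravasated group, with a median of 0.66, and runs along it in the extravasated group, with a median of 0.00.

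**Figure D2:**
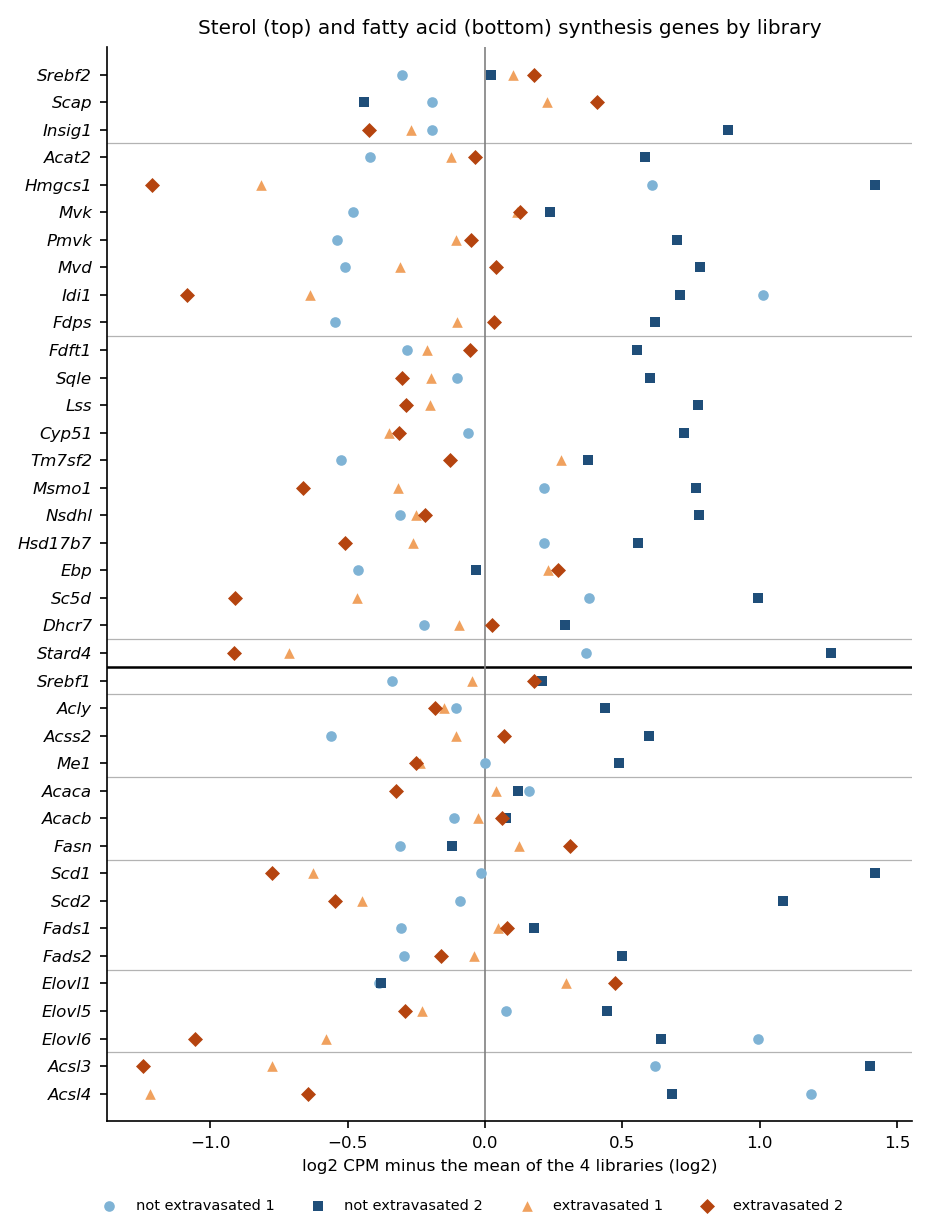
Level of each of the 38 genes in the 4 libraries, as log2 CPM minus the mean of the 4 libraries; thin lines separate roles and the thick line separates the sterol (upper) from the fatty acid genes (lower). The dark blue square, the second not extravasated library, is the rightmost symbol for 29 of the 38 genes.

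In what follows, levels are CPM after TMM scaling, which corrects library totals for composition, and 4 values in a row stand for the first and second not extravasated and the first and second extravasated library. Of the 3 SREBP regulators of the sterol branch, 1 rose and 2 did not pass the test. Scap, the escort protein, measured 94.7, 79.7, 126.7 and 143.8 CPM, and it rose by 0.64 on the log2 scale (SE 0.14, adjusted p = 0.0103). Both extravasated libraries lay above both controls. Srebf2, which encodes SREBP2, measured 251.3, 314.0, 332.5 and 350.1 CPM, with the same order of the groups and a log2 fold change of 0.27 (SE 0.14, adjusted p = 0.146). Insig1, which encodes the sterol-dependent anchor and is itself an SREBP target, measured 95, 200.1, 90 and 81 CPM. Its second control library was 2.11 times the first, and the group difference of -0.79 (SE 0.35) had an adjusted p of 0.12. Scap was the only regulator of the 3 with a lower level in the second than in the first control library, with a ratio of 0.841.

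Of the 7 genes of the mevalonate and isoprenoid steps, 2 fell and 5 did not pass the test. Hmgcs1, HMG-CoA synthase (chromosome 13, 119690379 to 119708260, GRCm38), measured 130.9, 229.7, 48.8 and 37 CPM. It fell to a level 4.22 times lower, a log2 fold change of -2.08 (SE 0.31, adjusted p = 0.00562), and its lower control value was still above both extravasated values. Idi1, isopentenyl-diphosphate isomerase, measured 22.1, 17.9, 7.04 and 5.16 CPM and fell by 1.72 on the log2 scale (SE 0.24, adjusted p = 0.00203). Idi1 was the 1 gene of these steps in which the second control library was not the highest. In the other 5 genes that library was the highest. Mvd, mevalonate diphosphate decarboxylase, measured 26.8, 65.7, 30.8 and 39.3 CPM. Pmvk, phosphomevalonate kinase, measured 21.9, 51.6, 29.6 and 30.7 CPM. Acat2, which condenses acetyl-CoA units, measured 61.9, 123.8, 76 and 80.6 CPM. In these 3 genes the first control library was the lowest of the 4 and the second the highest, so the extravasated values lay between the controls. Fdps, farnesyl diphosphate synthase, had the same order with 3.56, 7.99, 4.85 and 5.32 CPM. Mvk, mevalonate kinase, measured 23.8, 39.1, 36 and 36.3 CPM, and there the first control stood apart from the other 3 libraries. Log2 fold changes of these 5 genes ran from -0.40 for Mvd to 0.19 for Mvk, with adjusted p from 0.476 to 0.698. The Fdps level is uncertain, because 5 other annotated genes hold near-identical copies of its transcript, the longest over 85.9% of its length, and Acat2 shares 65.6% of its transcript with Acat3.

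Among the 11 enzymes from squalene to cholesterol, 3 fell and 8 did not pass the test, and the second control library exceeded the first in all 11, by ratios from 1.27 to 2.13. Sc5d, the lathosterol oxidase, measured 56.2, 86.1, 31.3 and 23 CPM and fell by 1.40 on the log2 scale (SE 0.25, adjusted p = 0.00635). Msmo1, the methylsterol oxidase, measured 170.6, 250.4, 118.2 and 93 CPM and fell by 1.0 (SE 0.21, adjusted p = 0.0113). Hsd17b7, a ketosteroid reductase of sterol demethylation, measured 30.6, 38.8, 22 and 18.5 CPM and fell by 0.78 (SE 0.19, adjusted p = 0.0133). In all 3, both controls lay above both extravasated libraries. Sqle, squalene epoxidase and a rate-controlling step, measured 117.8, 191.8, 110.2 and 102.6 CPM, with a log2 fold change of -0.54 (SE 0.23, adjusted p = 0.0974). Cyp51, lanosterol demethylase, measured 230.9, 397.6, 189.2 and 193.9 CPM, with a log2 fold change of -0.72 (SE 0.25, adjusted p = 0.0634). In both genes the first control library lay much closer to the extravasated libraries than to the other control. Lss, lanosterol synthase, measured 77.9, 162.7, 82.7 and 77.8 CPM: the first control and the second extravasated library were nearly equal, and the second control was 2.09 times the first. Nsdhl, a sterol dehydrogenase of demethylation, measured 42.4, 90.2, 44.1 and 45.1 CPM, and Fdft1, squalene synthase, 75.3, 134.4, 79.2 and 88.2 CPM. In these last 3 genes only the second control library stood apart, with group differences of -0.59, -0.58 and -0.33 and adjusted p of 0.215, 0.234 and 0.367. Dhcr7, which carries out the last step of one route, measured 156.3, 223.2, 170.8 and 185.8 CPM, and Tm7sf2, a sterol reductase, 4.43, 8.27, 7.72 and 5.84 CPM, and their log2 fold changes were -0.09 and 0.07. Ebp, the sterol isomerase, was the exception in its order, with 42.9, 57.8, 69.3 and 71 CPM, both extravasated libraries highest, and a log2 fold change of 0.48 (SE 0.17, adjusted p = 0.051).

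Stard4, which carries sterol between membranes, measured 31.3, 58.2, 14.8 and 12.9 CPM and fell by 1.70 on the log2 scale (SE 0.30, adjusted p = 0.00663). The controls differed from each other by a ratio of 1.86, and both lay above the extravasated libraries.

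In the fatty acid branch, the regulator and the enzymes that supply precursors showed small group differences. Srebf1, which encodes SREBP1, measured 48, 70.2, 58.8 and 68.7 CPM, with a log2 fold change of 0.11 (SE 0.20, adjusted p = 0.69) and overlapping groups. Acly, which makes acetyl-CoA from citrate, measured 431.7, 627.9, 418.5 and 408.8 CPM, with a log2 fold change of -0.36 (SE 0.18, adjusted p = 0.142). Acss2, which makes acetyl-CoA from acetate, measured 10.2, 22.8, 14 and 15.8 CPM, and its second control library was 2.25 times the first. For Srebf1 and Acss2, as for the mevalonate kinases, the first control library was the lowest and the second the highest of the 4. Me1, malic enzyme and a source of NADPH, measured 122.1, 170.9, 103.6 and 102.6 CPM and fell by 0.51 on the log2 scale (SE 0.17, adjusted p = 0.0444). That call was lost without the second control library (-0.24, adjusted p = 0.21), without either extravasated library (adjusted p = 0.225 and 0.229), under upper quartile factors (0.0926), without scaling factors (0.0513) and with a correction for transcript GC content and length (-0.06). Me1 also shares 52.1% of its transcript with the annotated copy Gm7049.

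Of the 3 enzymes that build the acyl chain, 1 rose and 2 did not pass the test. Fasn, fatty acid synthase (chromosome 11, 120805846 to 120824547, GRCm38), measured 714.3, 815.4, 966.2 and 1097.0 CPM and rose by 0.43 on the log2 scale (SE 0.13, adjusted p = 0.0258). Both extravasated libraries lay above both controls, and the second control was only 1.14 times the first. Acaca, the main acetyl-CoA carboxylase, measured 102.2, 99.4, 94 and 73 CPM, with a log2 fold change of -0.27 (SE 0.15, adjusted p = 0.179), and 67.8% of its transcript has a near-identical annotated copy. Acacb, the mitochondria-associated carboxylase, measured 9.2, 10.5, 9.77 and 10.4 CPM, with a log2 fold change of 0.03 (SE 0.21, adjusted p = 0.929). For Acaca and Acacb the interval of the ratio between the controls spanned 1, from 0.902 to 1.05 and from 0.896 to 1.47.

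Both stearoyl-CoA desaturases, which make monounsaturated fatty acids, had wide gaps between the controls, and Scd1 had the largest ratio of the 38 genes. Scd1 (chromosome 19, 44394455 to 44407879, GRCm38) measured 109.5, 296.2, 71.6 and 64.6 CPM, a ratio between the controls of 2.7 (95% interval 2.54 to 2.88). It fell by 1.58 on the log2 scale with a wide error (SE 0.46, adjusted p = 0.0399). Its neighbour Scd2 (44293674 to 44306864) measured 1434.0, 3235.8, 1118.7 and 1044.8 CPM, a ratio between the controls of 2.26 (95% interval 2.22 to 2.3), with a group difference of -1.11 (SE 0.37, adjusted p = 0.0598). In both genes even the lower control exceeded both extravasated libraries. The Scd1 call depended on the scaling and the test, with an adjusted p of 0.111 under RLE factors, 0.112 under upper quartile factors, 0.0697 with limma-voom, 0.126 with the kind of title ending as a term and 0.364 with no filter on low counts. Leaving out an extravasated library gave 0.135 and 0.185. The desaturases of polyunsaturated fatty acids had smaller group differences: Fads2 measured 192.5, 333.5, 229.8 and 211.1 CPM and Fads1 136.3, 190.8, 173.9 and 178.3 CPM. Their groups overlapped, and the log2 fold changes were -0.26 and 0.11 with adjusted p of 0.457 and 0.642.

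Of the elongases and acyl-CoA synthetases, 1 rose and 4 fell. Elovl1, which elongates saturated very long chains, measured 48, 48.3, 76.9 and 87.1 CPM and rose by 0.77 on the log2 scale (SE 0.14, adjusted p = 0.00432), with nearly equal controls. Elovl6, which elongates palmitate, measured 72.9, 57, 24.5 and 17.6 CPM and fell by 1.63 (SE 0.21, adjusted p = 0.00158). Elovl5, which elongates polyunsaturated chains, measured 110.8, 143.1, 89.7 and 86 CPM and fell by 0.53 (SE 0.15, adjusted p = 0.0251), but its adjusted p was 0.0843 without the second control library, 0.139 and 0.171 without either extravasated library and 0.0505 under upper quartile factors. The elongases thus went in both directions. Acsl3, an acyl-CoA synthetase of lipid droplets, measured 102.9, 177.2, 39.1 and 28.3 CPM and fell by 2.06 (SE 0.31, adjusted p = 0.00594). Acsl4, which prefers arachidonic acid, measured 47.7, 33.6, 9.01 and 13.4 CPM and fell by 1.85 (SE 0.26, adjusted p = 0.00227). In Elovl6 and Acsl4 the second control library was below the first, with ratios of 0.782 and 0.706, unlike most of the other genes.

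Which genes fell followed the base composition of their transcripts. Over 11122 nuclear coding genes the log2 fold change rose with the GC content of the transcript (Spearman rho 0.743, Pearson r 0.713), and over the 38 genes rho was 0.844 and r 0.813. These correlations run across genes that share the same 4 libraries, and genes are not independent replicates. The 12 genes that fell had transcripts of 39% to 47.2% GC (median 43.9%), the 3 that rose 52.5% to 59.1% (median 57.9%), and the 23 others 45.8% to 59.6% (median 52.2%). Of all 3395 genes between the lowest and highest GC content of the 12, 65.5% fell, with a median log2 fold change of -0.94, where the median of the 12 was -1.60. When each library's trend with GC content and length was removed by an offset, 1 of the 38 genes was lower, where 6.25% of all tested genes were, and 1 was higher, where 8.17% of all tested genes were. These were Elovl6, with -0.58 (adjusted p = 0.0461), and Elovl1, with 0.49 (adjusted p = 0.0371). The median of the 38 genes stayed at -0.36 and that of all tested genes was 0.04. Tested genes outside the 11122 received no offset and are part of these shares over all tested genes. Hmgcs1 then stood at -1.19 on the log2 scale (SE 0.32, adjusted p = 0.0639), Acsl3 -1.10 (SE 0.33, adjusted p = 0.0789) and Scd1 -1.02 (SE 0.47, adjusted p = 0.203). Hsd17b7 and Elovl5, which had fallen without the correction, both stood at 0.18 with it, with adjusted p of 0.556 and 0.461. Without adjustment, p was under 0.05 for 18 of the 38 genes before the correction and for 8 after it.

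**Figure D3:**
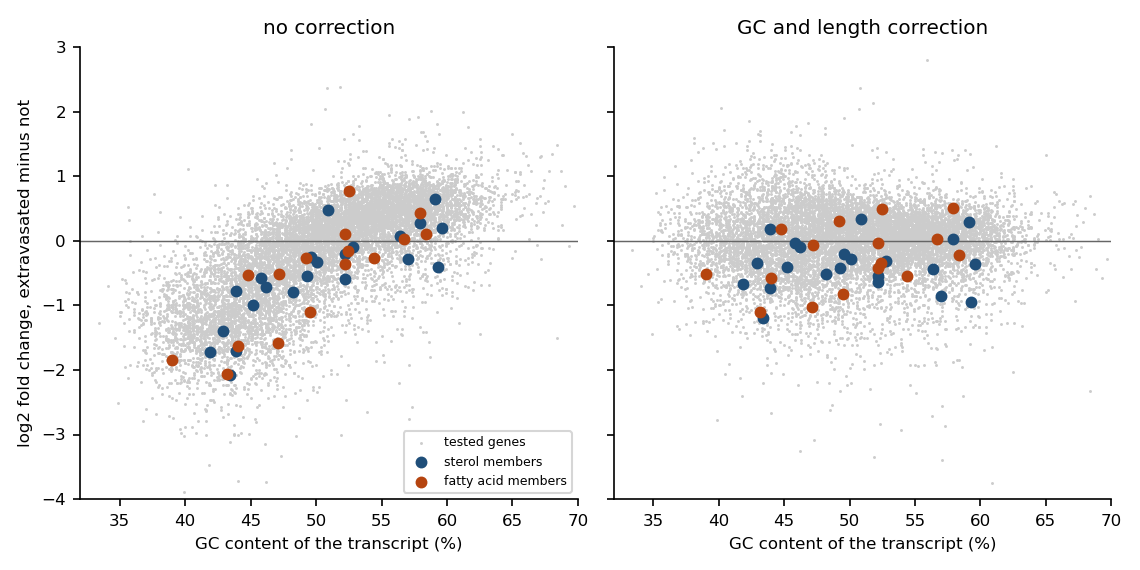
Log2 fold change of extravasated minus not extravasated (vertical axis) against the GC content of the transcript (horizontal axis, %), without (left) and with (right) the GC and length correction, for tested genes (grey), sterol genes (blue) and fatty acid genes (orange); the axes leave out the most extreme tested genes. Without correction the 12 genes that fell all lie at 47.2% GC or below, and with it the colored points keep a median of -0.36.

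**Figure D4:**
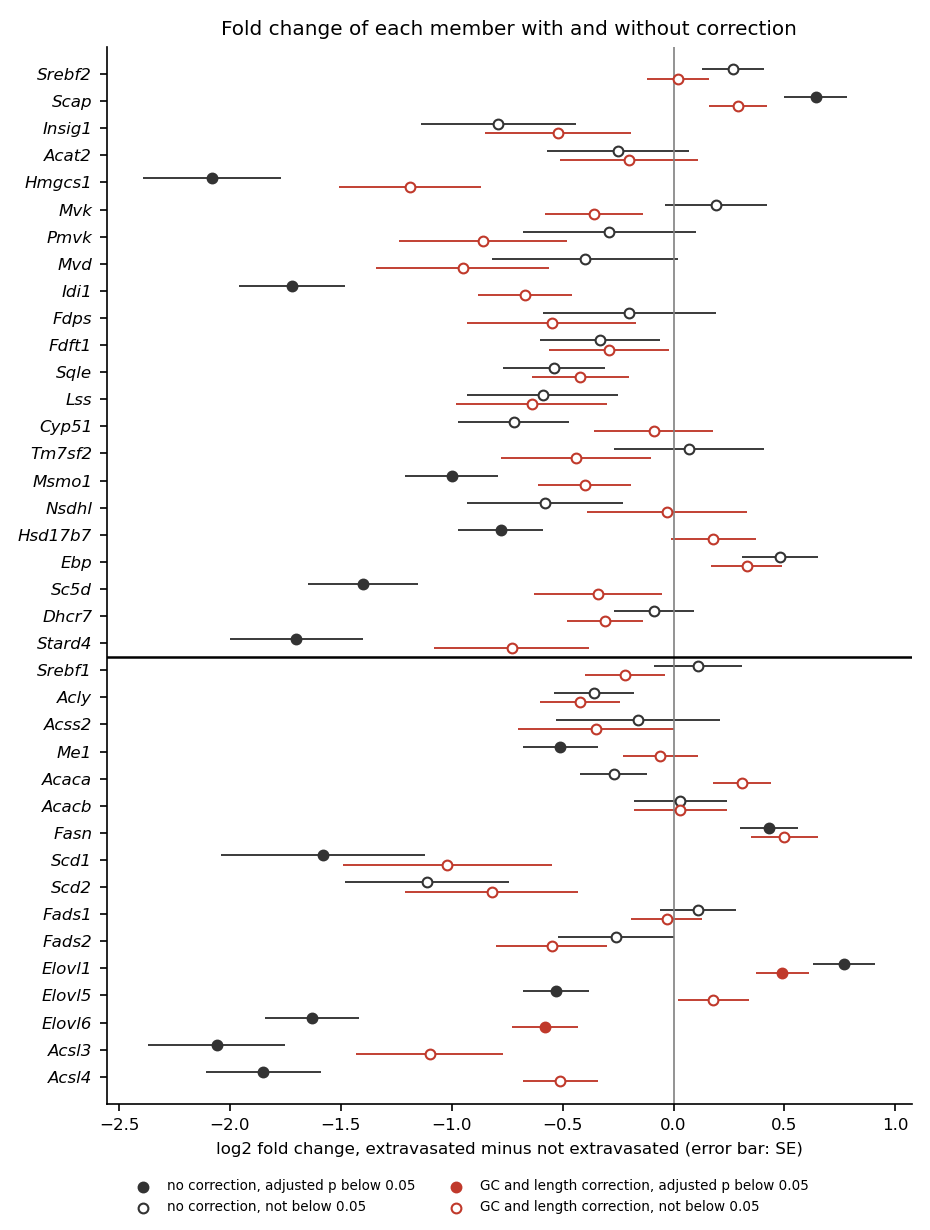
Log2 fold change of each of the 38 genes with its SE (bars), without correction (black) and with the GC and length correction (red); filled symbols have an adjusted p below 0.05. Of the 15 filled black symbols, Elovl1 and Elovl6 alone stay filled in red.

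The gap between the controls did not follow base composition in the same way. The difference between the second and the first control library had a rho of 0.12 with GC content over the 38 genes and of 0.256 over the coding genes. With the correction, the second control exceeded the first for 35 of the 38 genes (92.1%, against 49.8% of all tested genes), with a median log2 difference of 0.69. Measured from the mean of the 4 libraries, the median of the 38 corrected values was -0.23 and 0.50 in the 2 controls and -0.14 and -0.12 in the extravasated libraries.

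The comparison gave other calls against each control alone. Without the second control library, 11 of the 38 genes fell (28.2% of all tested genes did) and 6 rose (18.9% of all tested genes), and the median log2 fold change was 0.06. Without the first, 25 fell (27.9% of all tested genes) and 3 rose (22.3% of all tested genes), and the median was -0.72. The 11 genes that fell against the first control alone also fell against the second alone: Hmgcs1, Idi1, Msmo1, Hsd17b7, Sc5d, Stard4, Scd1, Scd2, Elovl6, Acsl3 and Acsl4. Another 14 were called lower against the second control and not against the first, among them Insig1 (-1.23 against -0.15), Lss (-1.02 against 0.04), Nsdhl (-1.02 against 0.07), Cyp51 (-1.05 against -0.27) and Mvd (-0.90 against 0.39). The difference between these fits was not tested. Not all of the 11 kept a lower value with the GC and length correction and without the second control. Scd1 then stood at -0.08 on the log2 scale, and Hsd17b7 and Sc5d changed sign, with values given further below. Srebf2, Mvk and Ebp rose in the comparison with the first control alone, by 0.44, 0.60 and 0.71 on the log2 scale (adjusted p = 0.0128, 0.0144 and 0.0013). In these comparisons the single control library is assumed to vary as the extravasated libraries do. Leaving out an extravasated library shortened the list: 6 fell and 2 rose without the first (16.9% and 9.43% of all tested genes). Without the second, 3 fell (Idi1, Elovl6 and Acsl4) and none rose by edgeR (11.2% and 2.37% of all tested genes), where p without adjustment was under 0.05 for 11 genes, 9 of them lower.

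The endings of the sample titles, a capital C or a lower-case letter, divide each group. Between the libraries ending in C, the extravasated library was below the control for 19 of the 38 genes (51.6% of all tested genes), with a median log2 difference of 0.04. Between the lettered libraries, the extravasated library was below the control for 33 of the 38 (50.1% of all tested genes), with a median of -0.74, where that of all tested genes was 0.00. What the endings stand for is not given in the sources used here, and each of these is a difference between 1 library and 1 library. With the ending as an additive term in edgeR, 15 of the 38 genes fell (28.7% of all tested genes) and 4 rose (21.4% of all tested genes).

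On a scale of CPM per kilobase of transcript, which allows levels of different genes to be set side by side, Scd2 was the most abundant of the 38 genes in both groups, with means of 428.0 and 198.3. Acly followed in the controls with 120.6, Msmo1 with 103.0 and Fads2 with 83.5. In the extravasated group Fasn came next with 102.6, then Acly with 94.2. In the controls, the ranges of Acly, Msmo1 and Fads2 over the libraries overlapped, and Scd2 stood above them in every library. Acacb was the lowest, with 1.16 and 1.19.

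As lists, genes around the pathway did not show the gap between the controls. The lists were regulators of SREBP processing outside the 38 genes, other enzymes of both branches and of isoprenoid side branches, sterol efflux and transport, fatty acid oxidation, and lipid uptake and storage. The median log2 difference between the second and first control was -0.14, -0.09, 0.03, -0.11 and 0.11 in these lists, against 0.80 in the sterol and 0.49 in the fatty acid genes. The difference between these medians was not tested.

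**Figure D5:**
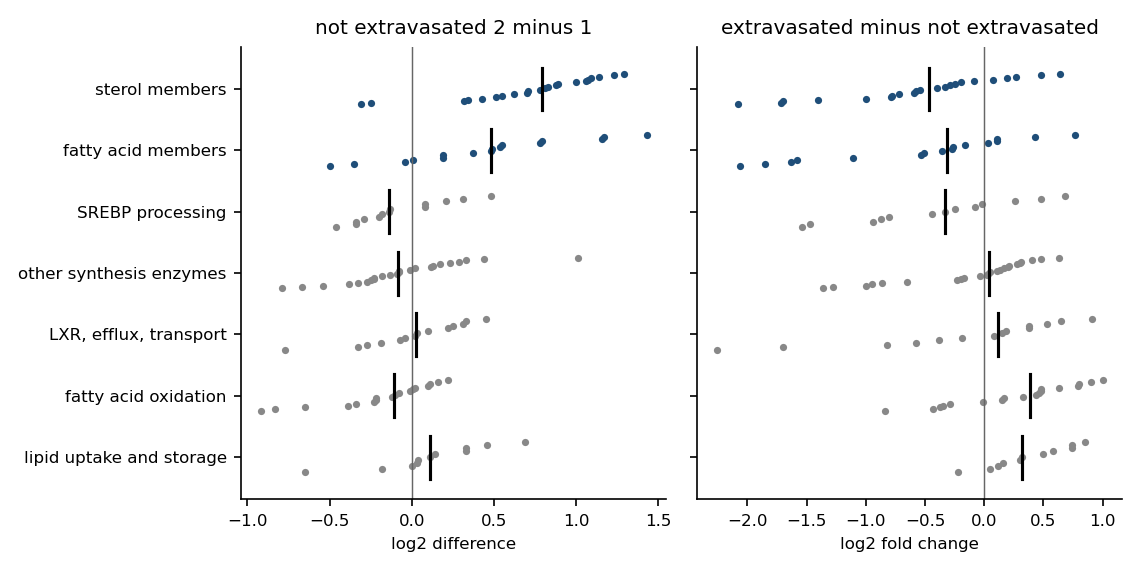
Log2 difference between the second and first not extravasated library (left) and log2 fold change of extravasated minus not extravasated (right) for each tested gene of the sterol and fatty acid lists (blue) and of 5 related lists (grey), with black lines at the medians. On the left the blue medians lie at 0.80 and 0.49 and the grey ones between -0.14 and 0.11.

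Of the 13 tested regulators of SREBP processing, 5 fell (38.5%, where 25.9% of all tested genes fell) and 2 rose (15.4%, where 19.1% did). Sec23a and Sec24a, coat proteins of the vesicles that leave the endoplasmic reticulum, fell by 1.47 and 0.94 on the log2 scale (adjusted p = 8.70e-04 and 0.00274). Mbtps2, the protease that makes the final cut in the SREBP precursor, measured 26.2, 19, 7.12 and 8.32 CPM and fell by 1.54 (adjusted p = 0.00243). Erlin1, a sterol-sensing protein of the endoplasmic reticulum, fell by 0.80 (adjusted p = 0.0133). With the GC and length correction none of these 4 passed the test, at -0.40, 0.21, -0.35 and -0.13 on the log2 scale.

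Of the 24 other synthesis enzymes, 6 fell (25%) and 3 rose (12.5%), neither above the shares of all tested genes, 25.9% and 19.1%. Ggps1, which makes geranylgeranyl diphosphate, fell by 1.36 (adjusted p = 0.0017), Lpin1, a phosphatidate phosphatase, by 1.0 (adjusted p = 0.00908) and Nus1, of dolichol synthesis, by 0.65 (adjusted p = 0.0113). Fntb, a farnesyltransferase subunit, rose by 0.63 (adjusted p = 0.0115). With the correction Nus1 was called in the other direction, at 0.49 (adjusted p = 0.0349), Lpin1 stayed lower at -0.76 (adjusted p = 0.0433), and Ggps1 and Fntb were not called, at -0.12 and 0.16. Over the list, 7 genes were then higher and 1 lower, where 8.17% and 6.25% of all tested genes were. Slc25a1, the mitochondrial citrate carrier, was not called (log2 fold change -0.04), but it showed the order of the synthesis genes, with 41.5, 83.5, 60.3 and 61.9 CPM. It was named for this order after its values were seen.

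In the 14 tested genes of sterol efflux and transport, 4 fell (28.6%, near the 25.9% of all tested genes) and 4 rose (28.6%, where 19.1% of all tested genes rose). Abca1, which exports cholesterol from cells and is induced by the oxysterol receptors LXR, measured 14.3, 19.6, 2.5 and 4.48 CPM and fell by 2.26 (SE 0.32, adjusted p = 0.00217). Osbpl8, a lipid transfer protein, fell by 1.70 (adjusted p = 0.00665). Nr1h2, which encodes LXR beta, measured 67.4, 65.5, 120.1 and 129.3 CPM and rose by 0.91 (adjusted p = 0.00194), and Apoe, a lipid carrier, rose by 0.53 (adjusted p = 0.00703). With the correction, these 4 had log2 fold changes of -1.36, -1.08, 0.37 and -0.06, and none passed the test.

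More of the fatty acid oxidation and lipid storage genes rose than fell. Of 18 tested oxidation genes, 6 rose (33.3%, where 19.1% of all tested genes rose) and 3 fell, with a median of 0.38. Acaa2, a thiolase, rose by 1.0 (adjusted p = 0.00464), Acads, the short-chain dehydrogenase, by 0.79 (adjusted p = 0.00428) and Hadha, a trifunctional protein subunit, by 0.48 (adjusted p = 0.0289), while Acadm, the medium-chain dehydrogenase, fell by 0.84 (adjusted p = 0.0119). Of 11 tested uptake and storage genes, 4 rose (36.4%), with a median of 0.32, and the 1 gene with a lower value, Lrp1, a lipoprotein receptor, stood at -0.22 (adjusted p = 0.332). Slc27a4, a fatty acid transporter, rose by 0.85 (adjusted p = 0.0037), Dgat1, which makes triglyceride, by 0.74 (adjusted p = 0.0115), Plin2, a lipid droplet coat protein, by 0.74 (adjusted p = 0.0323) and Pnpla2, a triglyceride lipase, by 0.50 (adjusted p = 0.024). With the correction 3 oxidation genes and 2 storage genes were higher, where 8.17% of all tested genes were. Of the oxidation genes that had risen, only Acaa2 stayed higher, with 0.66 (adjusted p = 0.0417). Of the storage genes that had risen, only Slc27a4 did, with 0.54 (adjusted p = 0.0317). The other genes higher with the correction had not been called without it. Acadm was lower with -0.61 (adjusted p = 0.0457).

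For genes whose exons overlap another gene, reads could not be assigned with certainty. The strand setting of the counting is not given, and it would not separate genes on the same strand. Overlaps on the same strand concern Tm7sf2 with Vps51, Acsl3 with Utp14b, Fdps with Gm43738, Srebf1 with Mir6922 and Scd2 with Mir5114. Overlaps on the opposite strand concern, among others, Hmgcs1 with Gm48342, Idi1 with Gm48574, Fdft1 with Ctsb, Cyp51 with Akap9 and Elovl1 with Cdc20.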

How the data were processed

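RNA of 4 libraries, 2 per group by the labels' extravasation field, was measured, and the table as deposited by the authors holds raw counts for each gene, with no normalization. Per the submitters' processing notes, bcl2fastq 2.18.0.12, STAR 2.5.3a and GRCm38 were used; the counter, annotation release, strand setting and filters are not given in the sources used here. Identifiers were matched to GENCODE M21, 50690 with their version, 53360 in all and 105 not at all; the lists used symbols, and Spring1 was not matched.

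From the counts, genes were filtered (minimum count 10, minimum total 15), scaled by TMM and tested two-sided with edgeR 4.0.16 (R 4.3.3), with robust dispersion, no covariate and an adjusted p threshold of 0.05. Standard errors were computed from each log2 fold change and its F value. Log2 CPM used a prior count of 2. For the GC and length correction, each gene's deviation from the mean log2 CPM of the 4 libraries was taken. It was smoothed on GC content and log2 length of its APPRIS principal transcript (mgcv 1.9.3, basis size 10). The smoothed value was entered as an offset. Mitochondrially encoded genes and genes without a coding transcript received no offset. Of the tested genes, 11122 were nuclear coding genes with a transcript. Corrected shares over all tested genes therefore mix genes with and without an offset. Fits without a library kept the same 12320 genes. The code was checked on simulated counts. Copies were counted where at least 95% identity held over at least 50% of a transcript.

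All 38 genes are named; of each related list, up to 4 called genes with the smallest adjusted p are named, plus those stated as chosen later. The genes, the lists and the correction were chosen with earlier results of these data known, and the split by role was made after the values were seen. Alternatives were RLE, upper quartile and no scaling factors, DESeq2 1.42.0, limma-voom (limma 3.58.1), other filters, no robust moderation, the title ending as a term, the correction, and each library left out with and without it. Labels give no replicate numbers; the title ending, 1 of each kind in a group, pairs the libraries only in the fit that has it as a term.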

Additional observations from a re-analysis of the deposited data

How the results depend on the processing

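Counts over the 38 genes rest on 2 libraries a group, on the second control library and on the trend with GC content. Depth limits mainly the rarest genes, such as Fdps with 41 counts in the first control library. Under RLE factors, limma-voom, DESeq2, a filter on CPM and no robust moderation, 11 to 14 genes were lower and 3 or 4 higher. Upper quartile factors gave 9 lower and 4 higher, and no filter on low counts gave 17 lower and 4 higher. Without scaling factors 13 were lower and 2 higher, and 11 of the 12 lower calls were shared. Sterol genes called higher numbered 2 rather than 1 under RLE factors, upper quartile factors, DESeq2, limma-voom, no filter and the title ending as a term, and Ebp was the addition. With no filter 11 sterol genes were lower. Upper quartile factors left 3 fatty acid genes lower, and no scaling left 1 higher.

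With the GC and length correction, 1007 of all tested genes were higher and 770 lower, with 1 and 1 of the 38 genes, 0 and 0 of the sterol genes and 1 and 1 of the fatty acid genes. With 1 library left out, all tested genes called higher ranged from 292 to 2743 and lower from 1385 to 3477. The 38 genes ranged from 0 to 6 higher and 3 to 25 lower, the sterol genes from 0 to 4 higher and 1 to 15 lower, and the fatty acid genes from 0 to 2 higher and 2 to 10 lower. With the correction and 1 library left out, the same ranges were 12 to 1846 and 3 to 1394 for all tested genes, 0 to 5 and 0 to 23 for the 38 genes, 0 to 2 and 0 to 16 for the sterol genes, and 0 to 3 and 0 to 7 for the fatty acid genes. In each case the lowest count came without the second extravasated library, or equally without the first, and the largest number of lower genes among the 38 without the first control. The median of the 38 genes ran from -0.72 without the first control to 0.06 without the second.

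Some genes changed sign, with a call on at least 1 side of the change. With the correction Hsd17b7 and Elovl5 were both 0.18. With the correction and without the first control Mvk was -0.66 and Srebf1 -0.47. With the correction and without the second control Nsdhl was 0.66, Hsd17b7 0.45, Sc5d 0.15, Me1 0.22 and Elovl5 0.43. With it and without the first extravasated library Hsd17b7 was 0.12, Me1 0.01 and Elovl5 0.23, and without the second Hsd17b7 was 0.23 and Elovl5 0.13. Without the correction and with 1 library left out, values of these genes ran as follows: Mvk from -0.11 to 0.60, Srebf1 from -0.14 to 0.41, Nsdhl from -1.02 to 0.07, Hsd17b7 from -0.94 to -0.60, Sc5d from -1.67 to -1.06, Me1 from -0.73 to -0.24 and Elovl5 from -0.70 to -0.33. The cause of these changes was not tested. The labels give no replicate numbers; the kind of title ending is the one label that pairs libraries across the groups, and with it as a term 15 of the 38 genes were lower and 4 higher.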

Other observations

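The genes of this paragraph, Elovl1 of the 38 among them, were picked out after their values were seen, and they form no list that was tested. Very long acyl chains are made by a cycle of an elongase, a ketoacyl reductase, a dehydratase and an enoyl reductase. With the correction, Hsd17b12, the reductase, was higher in extravasated libraries by 0.67 on the log2 scale (adjusted p = 0.0212), the dehydratases Hacd2 and Hacd3 by 0.90 and 0.91 (adjusted p = 0.00986 and 0.00966), and the elongase Elovl1 by 0.49 (adjusted p = 0.0371). Tecr, the enoyl reductase, stood at -0.37 (adjusted p = 0.0883), and Hacd1 at -0.11 (adjusted p = 0.696). The elongase Elovl6 was lower, at -0.58 (adjusted p = 0.0461). Of the 24 other synthesis enzymes as a whole, 7 were higher with the correction, where 8.17% of all tested genes were. Without the correction Elovl1 was called higher and Elovl6 lower, and the others of these were not called. Hsd17b12 measured 129.0, 98.8, 123.1 and 113.1 CPM, Hacd2 49, 41.7, 51.1 and 50.7 CPM, and Hacd3 56, 47.2, 63.6 and 64.1 CPM, in the order of libraries used above. Their transcripts have 45.1%, 45.3% and 45.8% GC, so these calls rest on the size of the correction at that composition.

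Scarb1, a lipoprotein receptor of the uptake list, was not called (log2 fold change 0.12, adjusted p = 0.69), yet it had the order of many synthesis genes, with 86, 138.6, 118.3 and 126.3 CPM. Cpt1a, which admits fatty acids to mitochondria for oxidation, had the opposite order within the controls, with 119.1, 63.1, 162.7 and 154.4 CPM, and a group difference of 0.80 on the log2 scale (adjusted p = 0.0798). Both were named after their values were seen.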
